A study of Homo sapiens with 3 samples.

Results

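The RNAs described here are the transcripts of 9 genes that act before, beside or against DICER in miRNA maturation: DROSHA, DGCR8, XPO5, TARBP2, PRKRA, LIN28B, ADAR, ZCCHC11 and ZCCHC6. The members are the clusters of crosslinked reads that the deposited annotation places on the sense strand of one of these genes. There were 16 of 11577 clusters in replicate 1, 17 of 18065 in replicate 2 and 8 of 5099 in replicate 3, or 41 in all, and 14 of 8469 in the series-wide list. Only XPO5 had none in any list.

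Each sample was a PAR-CLIP library labelled T1, from HEK293 cells of the Flp-In T-Rex type with a FLAG:DICER transgene. HEK293 is an established human embryonic kidney line. In PAR-CLIP, cells incorporate a photoreactive uridine analogue, ultraviolet light fixes RNA to the bound protein, and fixed uridines appear as T-to-C conversions in the sequenced cDNA. The 3 libraries are replicates of 1 group, with no untagged or untreated library and no RNA abundance beside them, so a conversion count reflects both contact with the protein and the amount of the RNA. The labels do not state whether the replicates were separate cultures, so their spread may be technical.

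In the nucleus, the Microprocessor, made of the RNase III enzyme DROSHA and the RNA-binding protein DGCR8, cuts primary miRNA transcripts to hairpins. Exportin 5, encoded by XPO5, carries the hairpins to the cytoplasm, where DICER cuts them together with its double-stranded RNA binding partners TRBP (TARBP2) and PACT (PRKRA). LIN28B binds let-7 precursors and blocks their maturation, the terminal uridylyltransferases TUT4 (ZCCHC11) and TUT7 (ZCCHC6) add uridines to precursor ends, and ADAR deaminates adenosines in double-stranded RNA. The Microprocessor also cuts hairpins within the DGCR8 mRNA itself, which is a known feedback on its own level.

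The exons of DGCR8 hold the hairpins of MIR3618 and MIR1306, and the second was touched by clusters here. Their mature miRNAs are shown because they are the annotated DICER products inside an mRNA of this set. Capitals mark the seed (bases 2 to 8). The sequences come from RefSeq (GRCh38.p14, plus strand): the miR-1306 arms lie at chr22:20086072-20086093 and chr22:20086112-20086129, and miR-3618 at chr22:20085797-20085818.
hsa-miR-1306-5p: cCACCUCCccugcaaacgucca
hsa-miR-1306-3p: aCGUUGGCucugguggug
hsa-miR-3618: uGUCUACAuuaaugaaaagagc
The 3 seeds differ from one another. The coordinates of all clusters below are in hg19, the build of the deposited lists, and are not comparable with those of RefSeq.

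One site stood far above the rest, a cluster at the end of exon 6 of DROSHA. Its conversions numbered 458 (replicate 1), 151 (replicate 2) and 169 (replicate 3), while the other 38 clusters of the 9 mRNAs held between 2 and 49. All 3 replicates thus listed it, each time above every other cluster of these genes. It made up 64.7%, 68.0% and 47.9% of the conversions of the 9 mRNAs in replicates 1, 2 and 3. All their clusters together held 0.0448% ± 0.0208 of the conversions of a list (SD, n = 3), and 0.0787% of its distinct reads.

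**Figure D1:**
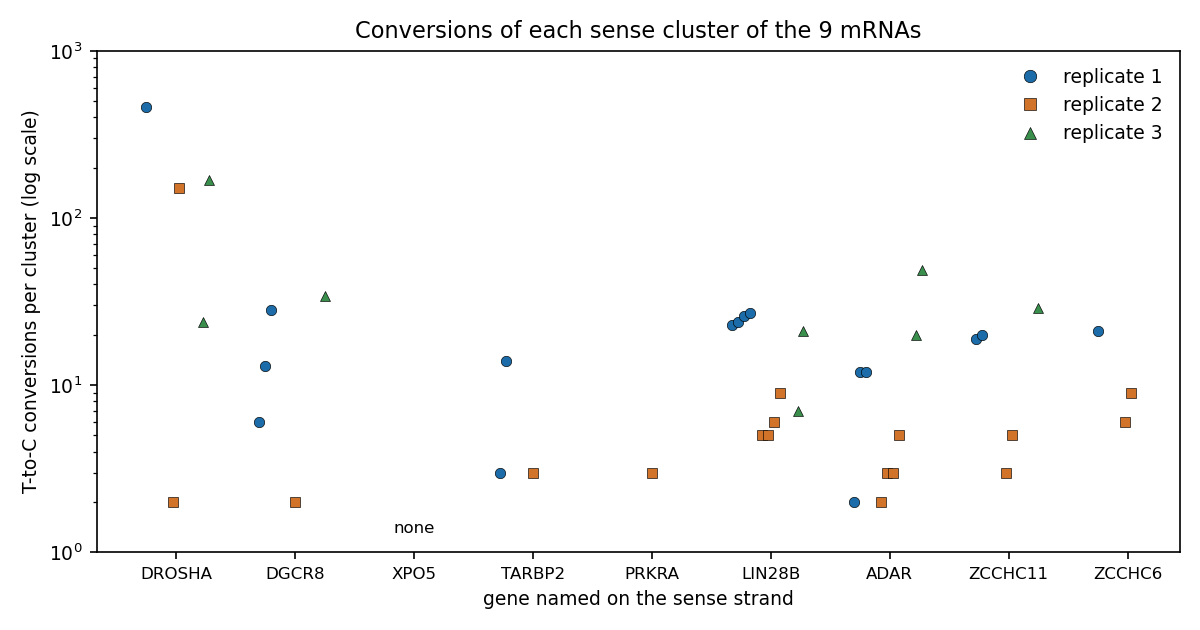
T-to-C conversions per cluster (log scale) for each gene, with 1 point per sense cluster in a replicate list. The DROSHA exon 6 cluster (458, 151 and 169 conversions) lies above all others, which reach at most 49, and XPO5 has no cluster.

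The DROSHA cluster did not lie within the coding sequence alone but crossed a 5′ splice site. In the series-wide list it spans 31515530 to 31515593 on chromosome 5 (minus strand, 64 nt, 653 conversions). The annotation names both exon 6 and intron 6 of 1 RefSeq transcript there, while another RefSeq transcript has the whole stretch inside intron 6. The clusters of replicates 1 and 2 ran from 31515530 and 31515531 to 31515592, and that of replicate 3, the shortest, from 31515560 to 31515593. Conversions fell on 8, 10 and 3 positions in replicates 1, 2 and 3. The position listed as representing the cluster differed between them, at 31515592, 31515559 and 31515567. A MER5A repeat, a DNA transposon fragment, is annotated on the other strand at this place.

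The site was supported by many separate reads in replicates 1 and 2 and by few in replicate 3. Its distinct reads numbered 55 (replicate 1), 40 (replicate 2) and 8 (replicate 3). Each distinct read was seen 9.49, 4.05 and 21.1 times on average, within the range of the other clusters of the 9 mRNAs, which was 1.5 to 11.5 in replicate 1, 1.0 to 4.5 in replicate 2 and 3.5 to 24.5 in replicate 3. Among clusters on exons of coding transcripts it ranked 49 of 7446, 65 of 8656 and 32 of 2236 by conversions. Its share of the conversions in such clusters was 0.172% ± 0.0573, and of their distinct reads 0.133% ± 0.0242 (SD, n = 3). Elsewhere in DROSHA, replicate 2 had a cluster of 2 conversions in an AluJb repeat of intron 15, and replicate 3 one of 24 conversions in intron 10.

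The clusters whose shares of list conversions over the 3 replicates came closest to the DROSHA site, among 626 exon clusters of other genes seen in all 3 replicates, were on BIRC5, AURKB and DNASE1L2. That on BIRC5, an inhibitor of apoptosis, had 536, 138 and 141 conversions, a distance of 0.37 on the log2 scale. That on AURKB, a mitotic kinase, had 362, 163 and 182, at 0.37. The DNASE1L2 cluster, on the gene of a DNase I-like nuclease, had 303, 166 and 155, at 0.62, and like the DROSHA cluster it crossed an exon-intron boundary. Likeness over only 3 replicates is a description of levels.

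Clusters on DGCR8 were scattered over its exon 2 and its 3′ untranslated region. At the MIR1306 locus in the coding part of exon 2 (chromosome 22, 20073613 to 20073654, plus strand, series-wide list), replicate 1 had 6 conversions and replicate 2 had 2, from 2 distinct reads each, and replicate 3 listed nothing. The cluster of replicate 1 covered 20073613 to 20073637 and that of replicate 2 covered 20073629 to 20073654, so they shared only a short stretch. The annotation names hsa-mir-1306 in each. No cluster of any list named hsa-mir-3618. Where the clusters lie within the MIR1306 hairpin was not determined.

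The other DGCR8 clusters lay in the last exon at 3 different places. Replicate 1 had 28 conversions at 20098266 to 20098305 and 13 at 20098622 to 20098651, and replicate 3 had 34 at 20098967 to 20098999. Only the last was in the series-wide list, with 25 conversions and reads from 2 replicates. On the other strand, AC006547.8 is annotated at 20098622 and at 20098967, but not at 20098266.

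The export factor and the DICER partners had few clusters, as was common among genes. Of 20056 protein-coding genes, 60.1% had a sense cluster in 0 replicates, 18.1% in 1 and 13.9% in 2. XPO5 had 0 in all 4 lists, and since the lists hold only clusters past the authors' filter, lower read numbers cannot be seen. TARBP2 had 14 conversions in intron 2 and 3 in the 3′ untranslated region in replicate 1, and 3 in replicate 2 at 53895450 to 53895471 on chromosome 12, in a first exon that other transcripts have within intron 1. The 3′ cluster had 17 reads, most of them without a conversion. PRKRA had a single cluster, in replicate 2, with 3 conversions (chromosome 2, 179315453 to 179315483, minus strand), also in an alternative first exon. Neither gene was listed in replicate 3.

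LIN28B, the let-7 antagonist, had the most clusters of the 9 mRNAs in total, 10 against 9 for ADAR. It had 4, 4 and 2 in replicates 1, 2 and 3, and 9 of these 10 lay in exon 4. Together their conversions numbered 100 (replicate 1), 25 (replicate 2) and 28 (replicate 3). Each of 3 sites in exon 4 was listed in 2 replicates, and a different replicate was missing each time. In the coding part (chromosome 6, 105526299 to 105526352, plus strand), replicate 2 had 6 conversions and replicate 3 had 7, and both lists give 105526336 as the position representing the cluster, a deposited value whose definition is not stated. In replicate 2, 11 of the 17 sequence differences at this site were not T-to-C, and in the series-wide list 7 of 15 were not.

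Further along exon 4, in the 3′ untranslated region, lay the other LIN28B sites. At 105528157 to 105528212, replicate 1 had 27 conversions from 7 distinct reads on 5 positions and replicate 2 had 5 conversions from 3 distinct reads. At 105529236 to 105529270, replicate 1 had 24 conversions and replicate 3 had 21, with the same listed position, 105529255. The series-wide list gives this last site 38 conversions and reads from all 3 replicates, although replicate 2 lists no cluster there. Sites at 105526910 (23 conversions) and 105531031 (26 conversions) were listed in replicate 1 alone, and those at 105527108 (9 conversions) and in an AluJb repeat of intron 2 (5 conversions) in replicate 2 alone.

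The uridylyltransferase mRNAs differed in where their clusters lay. ZCCHC6 had its main site at another 5′ splice site, that of exon 1 in the 5′ untranslated region (chromosome 9, 88969255 to 88969321, minus strand). Replicate 1 had 21 conversions there and replicate 2 had 9, from 5 distinct reads each and with the same listed position, 88969287, while replicate 3 listed nothing. The series-wide cluster had 27 conversions from 9 distinct reads. Only 1 RefSeq transcript has intron 1 reach into it, and 2 others have it in exon 1 alone. A second ZCCHC6 cluster, in an intron, had 6 conversions in replicate 2.

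ZCCHC11 had 5 clusters at 5 different places. Replicate 1 had 20 conversions in intron 3 and 19 in intron 2, replicate 2 had 5 in intron 24 and 3 in exon 13, and replicate 3 had 29 in exon 22. The exon clusters were in the coding sequence. The intron 2 site was the only one of these in the series-wide list (chromosome 1, 52988965 to 52989005, minus strand, 20 conversions). That list had 20 conversions at a second ZCCHC11 site, in an AluSx1 repeat that 1 transcript includes as an exon, which no replicate list held.

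ADAR clusters were found in all 3 replicates but never at the same place. Replicate 1 had 12 conversions at each of 2 sites in exon 15, the 3′ untranslated region, and 2 in exon 2 where the 5′ untranslated region and coding sequence are both annotated. Replicate 2 had 2, 5 and 3 conversions at other sites of exon 15 and 3 in the coding part of exon 2. Replicate 3 had 49 conversions in intron 2 and 20 in intron 1 and no exon cluster. Its cluster of 49 conversions was the highest of the 9 mRNAs outside the DROSHA site, yet it came from 2 distinct reads. The series-wide list had 3 ADAR clusters, of which 2 overlapped no replicate cluster.

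**Figure D2:**
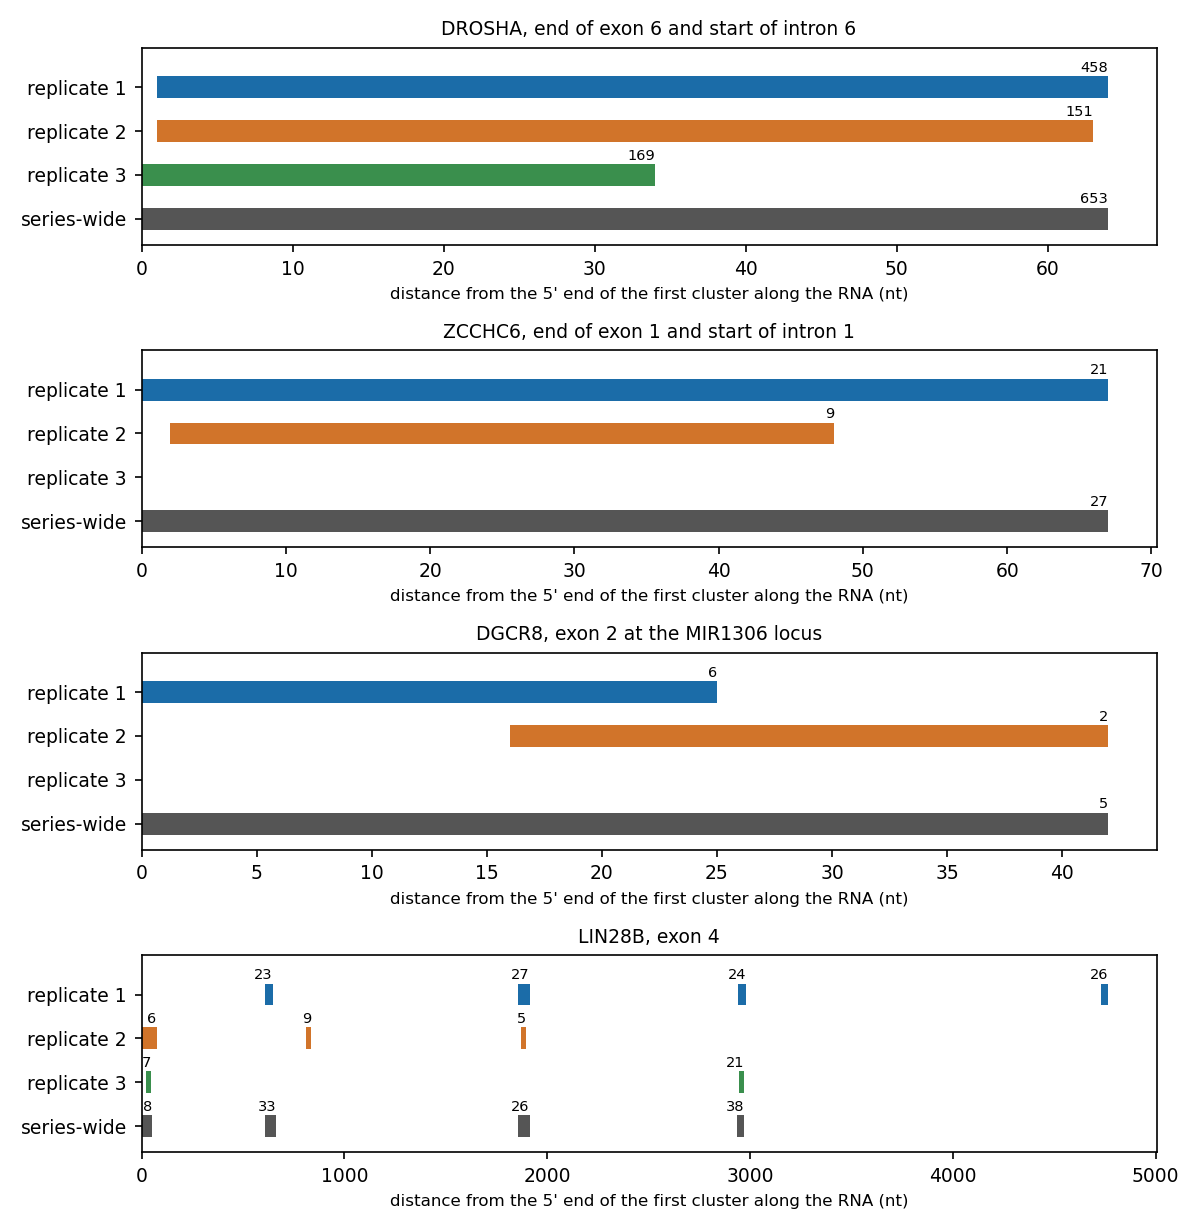
Extent of each cluster in nucleotides along the RNA, from the 5′ end of the most upstream cluster shown, in the replicate lists and the series-wide list, with its conversions printed above. The DROSHA site is present in all 3 replicates, the ZCCHC6 and MIR1306 sites are missing from replicate 3, and each LIN28B site is missing from at least 1 replicate.

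At the level of genes, 5 of the 9 mRNAs (DROSHA, DGCR8, LIN28B, ADAR and ZCCHC11) had a sense cluster in all 3 replicates. The same was true of 7.93% of 20056 protein-coding genes of the RefSeq table and of 19.3% of 10777 gene names with a sense cluster in any replicate. With exon clusters alone the count was 3 of 9 (DROSHA, DGCR8 and LIN28B), against 5.22% of the protein-coding genes and 17.2% of names with an exon cluster in any replicate. DGCR8 enters the exon count in replicate 2 through 1 cluster of 2 conversions that also names MIR1306, and the count is 2 for clusters naming 1 gene alone. The members' shares were above these backgrounds, but genes were not matched for length or RNA level and the part of either was not tested. Without replicate 3, the shallowest list, the exon count was 6. That count asks for clusters in fewer lists, so the shares above are not its background. Among clusters with 3 or more distinct reads, only DROSHA was left in either count. In replicate 3 few clusters pass this filter, 12.5% of the members' and 13.1% of all on coding transcripts. The share of all genes left under it is not given.

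At the level of single sites, most clusters of the 9 mRNAs were seen in 1 replicate, as were most of other mRNAs. The 41 clusters fell on 34 places, of which 1 was seen in all 3 replicates and 5 in 2. Over all clusters on coding transcripts, 3.70% of 21873 places were seen in all 3 replicates and 11.5% in 2, close to the 2.94% and 14.7% of the 9 mRNAs. Of their 14 series-wide clusters, 1 (7.14%) was overlapped in every replicate, against 12.6% of the 6458 series-wide clusters on coding transcripts and 15.9% of the whole list. The count was 2 without replicate 1, 2 without replicate 2 and 4 without replicate 3. These counts ask for overlap in fewer lists, so the shares above are not their background. The sites gained without replicate 3 were those of DGCR8 at MIR1306, LIN28B at 105528157 and ZCCHC6.

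Of 41 other genes of small RNA maturation and turnover, 13 had a sense cluster in all 3 replicates, 13 in 2, 8 in 1 and 7 in 0. Among them were DICER1, AGO2, DDX17, SRRT, KHSRP, RAN, NUP153, XPO1, HNRNPA2B1 and ELAVL1. DROSHA had 458, 153 and 193 conversions over all its clusters in replicates 1, 2 and 3. KHSRP, which binds some miRNA precursors, had 138, 81 and 75, and RAN, the GTPase that drives export by exportin 5, had 131, 40 and 19, both below DROSHA in each replicate. Of the 7 Argonaute and TNRC6 genes, the effectors of silencing, 1 (AGO2, 14.3%) had a cluster in all 3 replicates. The share of all protein-coding genes was 7.93%. The 41 clusters of the 9 mRNAs held 708, 222 and 353 conversions, against 63, 101 and 62 in the 29 clusters of those 7 genes. Without DROSHA the members held 250, 69 and 160, which is fewer than the 7 genes in replicate 2. DICER1 held 2371, 1634 and 389, with 84 clusters, but reads of its transgene were not separated.

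**Figure D3:**
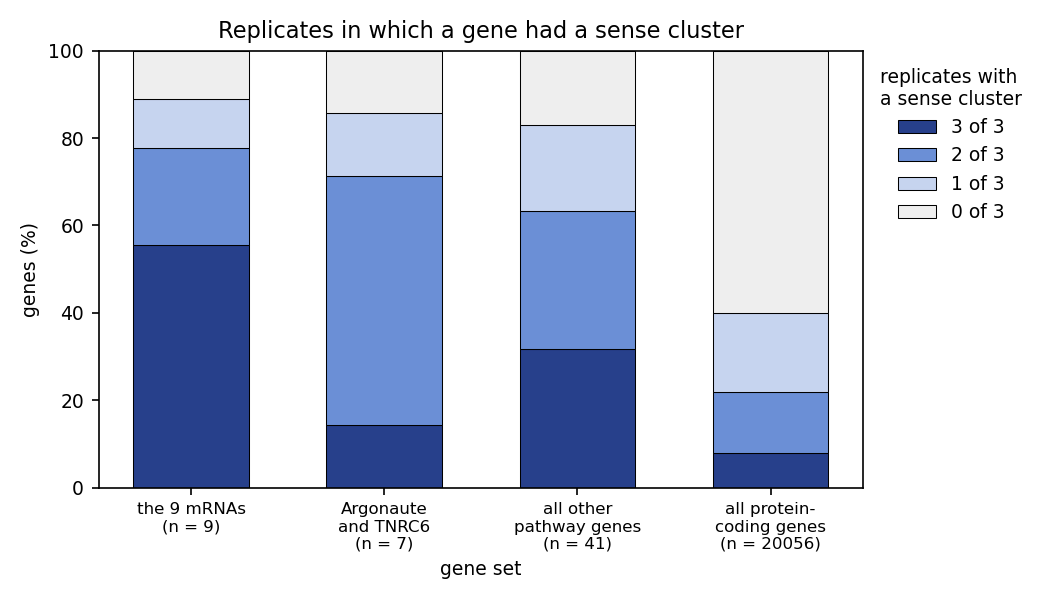
Percentage of genes with a sense cluster in 3, 2, 1 or 0 replicates, for the 9 mRNAs, the Argonaute and TNRC6 genes, all 41 other pathway genes (the Argonaute and TNRC6 genes included) and all protein-coding genes. Of the 9 mRNAs 5 are in the top class, against 7.93% of protein-coding genes.

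By region, the 9 mRNAs were close to other mRNAs in exons as a whole, coding sequence, 3′ untranslated regions and introns. They stood apart at exon-intron boundaries, through 2 sites. Clusters touching an exon were 73.4% ± 9.74 of theirs and 69.4% ± 11.4 of all clusters on coding transcripts (SD, n = 3 replicates). The 3′ untranslated region alone held 36.9% ± 16.9 against 31.8% ± 6.33, the coding sequence alone 18.3% ± 10.4 against 15.5% ± 3.07, and introns alone 26.6% ± 9.74 against 30.6% ± 11.4. These differences were smaller than the spread between replicates. Clusters crossing an exon-intron boundary were 12.3% ± 0.425 against 1.62% ± 0.442, higher in 3 of 3 replicates. The 5 clusters behind the first value came from 2 sites alone, those of DROSHA and ZCCHC6, so they are not 5 separate observations, and no test was made. No cluster lay in a 5′ untranslated region alone, against 4.66% ± 0.439 of all clusters on coding transcripts. With only 16, 17 and 8 member clusters in replicates 1, 2 and 3, a count of 0 cannot be told apart from that share. Places that are exon in some transcripts and intron in others held 3.92% ± 6.79 against 13.1% ± 1.04. Boundary clusters were left out of this class in both groups, also where another transcript has the place within an intron, as at DROSHA. The members had 0 clusters so classed in replicates 1 and 3. In replicate 2 the shares were alike, at 11.8% against 12.0%. Of 41 clusters in all, these classes hold too few for more than a description.

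**Figure D4:**
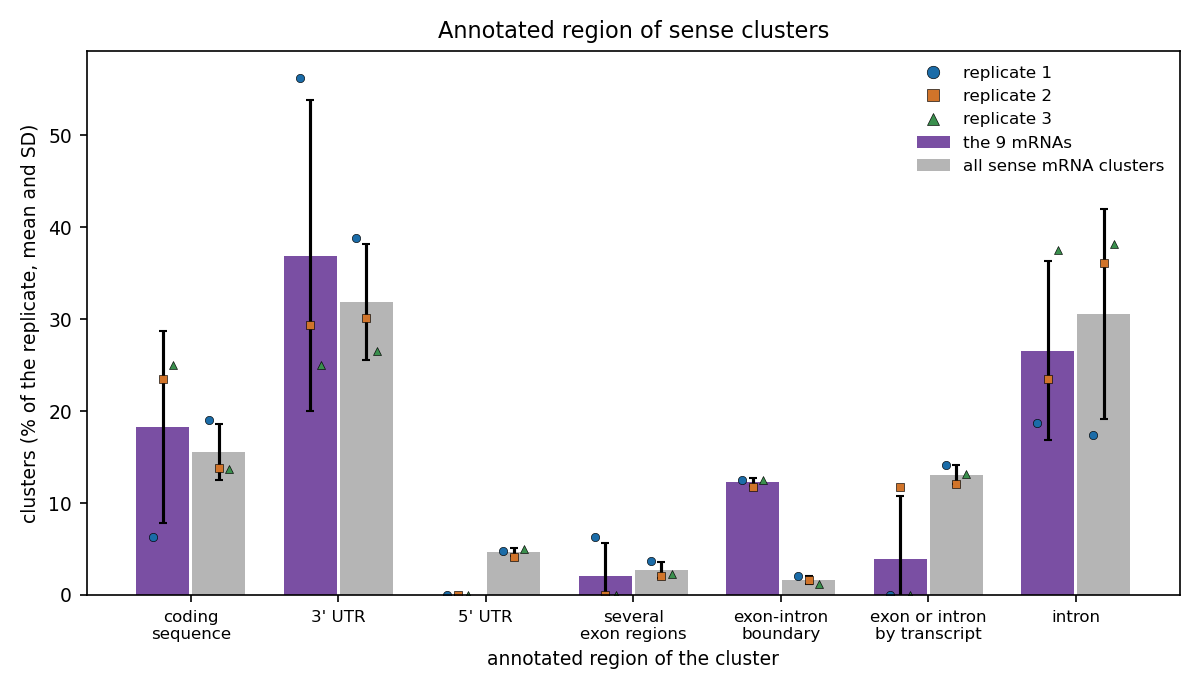
Percentage of sense clusters in each annotated region (bars, mean of 3 replicates, error bars SD, points single replicates) for the 9 mRNAs and for all clusters on coding transcripts. The groups overlap in the coding sequence, the 3′ untranslated region and introns, and stand apart at exon-intron boundaries (12.3% against 1.62%). The members have no cluster in a 5′ untranslated region alone, a class with 4.66% of all clusters on coding transcripts. The boundary share of the members comes from 2 sites. Error bars are cut at 0.

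The median cluster of the 9 mRNAs held more conversions than that of all mRNAs in 2 of 3 replicates, and 3 replicates are too few for a difference to pass a test. The median was 19.5, 5.0 and 26.5 conversions for the 9 mRNAs in replicates 1, 2 and 3, and 13.0, 5.0 and 18.0 for all clusters on coding transcripts. The median log2 conversions differed by 0.38 ± 0.33 (SD, n = 3), being higher in replicates 1 and 3 and equal in replicate 2 (exact two-sided sign-flip permutation p = 0.5, and 0.25 is the smallest that 3 replicates allow). Among clusters at or above the list median of conversions the direction turned, with a difference of -0.13. In both groups the median cluster had 2.0 distinct reads, the least that any listed cluster had. Exactly 2 distinct reads lay behind 28 of the 41 clusters, or 71.4% ± 15.6 per replicate, against 70.9% ± 17.9 of all clusters on coding transcripts (SD, n = 3). In the ADAR cluster of replicate 3, the highest of these, 2 distinct reads account for all 49 reads.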

How the data were processed

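The authors deposited a list of read clusters for each replicate and another for the series, whose clusters have reads of 2 or 3 replicates per the file attributes and whose conversions are not their sum. Bowtie2 2.1.0 and hg19 are named in the submitters' processing notes, and the sources used here name no version of the clustering program. The deposited value per cluster is a count of T-to-C conversions, not normalised to depth. The deposited entropy score was not used. The attributes give each cluster an estimated false discovery rate of 5%. Lists held 1306125, 1060791 and 595487 conversions from 109404, 111514 and 29416 distinct reads. Conversions of repeated reads are not independent molecules.

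Members were taken by gene name from the sense annotation. Regions followed the deposited classes and exon and intron names, and a boundary cluster had exon and intron of 1 transcript. Coding-transcript clusters include small RNAs inside coding genes. Overlap meant at least 1 nt on the same strand. Gene names were matched to RefSeq (GRCh38.p14) by symbol or unique synonym, with 9 of 9 members found. Replicate lists shared at most 0.121% of clusters with equal ends and conversions, so none is a copy. The named genes are the members, those pathway genes listed by every replicate, and the clusters nearest to the DROSHA site. Some of these pathway genes are not reported here. The members and lists were chosen with earlier results of these data known. Overlap, region and sign-flip code was tested on simulated data (Python 3.11.15, numpy 2.4.6, matplotlib 3.10.9).

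Of 8 marker genes of other cell types, 1 (SYP) had a sense cluster in any replicate. Of 4 epithelial and mesenchymal genes, KRT8 had one in replicate 2 and VIM in all 3, and EPCAM and KRT18 had none.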

Additional observations from a re-analysis of the deposited data

Results flagged for a closer look

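Clusters on the strand opposite to the 9 genes were outside the comparisons above. Within PRKRA, replicate 3 had 2 such clusters, with 39 conversions (chromosome 2, 179301257 to 179301287, plus strand) and 18 conversions (179300432 to 179300461). Both exceed 3 conversions, the limit set for flagging such clusters. Each came from 2 distinct reads and lay in an intron of transcripts named AC009948.5 and MIR548N, which run along that strand. Replicates 1 and 2 listed none, and the series-wide list held the second with 20 conversions. Their origin was not tested. On the strand opposite to XPO5, replicate 2 had a cluster of 3 conversions, which does not exceed that limit. The limit was not applied to the sense clusters above, where the only DGCR8 cluster of replicate 2 had 2 conversions.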

How the results depend on the processing

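The count of genes with a sense cluster in all 3 replicates, 5 as reported, was 1 with 3 or more distinct reads, 3 among clusters at or above the list median of conversions, and 2 by series-wide clusters with reads of 3 replicates. It was 4 for clusters naming 1 gene alone. Leaving out 1 replicate gave 5 to 7. The count with exon clusters, 3 as reported, was 1 with 3 or more distinct reads. It was 2 each for clusters naming 1 gene alone, for clusters at or above the list median and by series-wide support. With 1 replicate left out it was 3 to 6. No share over all genes is given for either count under these settings. The counts therefore cannot show whether the members stayed above the backgrounds. With 3 or more distinct reads 100% of the members' clusters touched an exon. Such clusters numbered 7, 5 and 1 in replicates 1, 2 and 3, and no share over all mRNAs is given beside them. The members' share of the lists was 0.0787% by distinct reads, against 0.0448% by conversions. The median log2 difference turned to -0.13 among clusters at or above the list median, and was 0.28 to 0.57 with 1 replicate left out. Series-wide clusters overlapped in every replicate numbered 2 to 4 with 1 replicate left out. The cause of these shifts was not tested, though leaving out a replicate asks for overlap in fewer lists. Of 49 values under alternatives, 38 were counted as keeping the reported result. Among them were those for reads, for an overlap of 0.5 of the shorter cluster and, chosen after seeing the data, for reads from both sequencing runs. The 38 also include a median log2 difference of 0.0 by distinct reads, which has no direction, and 7 genes without replicate 3, against 5. A deposited support value was read as the number of runs, though its definition is not stated. By it, 7 of 16 member clusters in replicate 1 had reads from both runs, against 48.9% of all clusters on coding transcripts. In replicates 2 and 3 all member clusters did, against 92.5% and 99.9% of all clusters on coding transcripts. No paired analysis was possible because all samples form 1 group. All member sites but the main one of DROSHA had at most 7 distinct reads in a replicate, which limits their precision, and a site missing from a list is not shown to lack reads.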
